A study of Mus musculus with 2 samples.

Results

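Claudins and other genes of the epithelial junctions were followed through 2 sections of irradiated mouse intestine. The set holds 10 of the 54658 gene symbols measured, taken by symbol: the claudins Cldn2, Cldn3, Cldn4, Cldn7, Cldn15 and Cldn23, the tight junction genes Ocln, F11r and Tjp1, and the adherens junction gene Cdh1. Of these, 9 had 200 or more counts over both sections, and Cldn2 had none. The study used spatial transcriptomics, in which RNA from a frozen tissue section is captured on an array of barcoded spots, so that each count has a position. There was 1 section of intestine from wild type mice and 1 section from mice labelled as knockouts of Dpf2, a subunit of the BAF chromatin remodelling complex. Both had received 10 Gy of X-rays, and no unirradiated section was analysed here. Not given in the sources used here are the interval between irradiation and sampling, the gut segment, which exons of Dpf2 were removed, in which cells, and any Cre driver.

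A sheet of epithelial cells is sealed by a belt of junctions near its luminal side. Claudins are the strands of the tight junction: some close the space between neighbouring cells, and others form channels that let small ions and water pass. Occludin and JAM-A lie in the same membrane contacts, ZO-1 ties them to actin, and E-cadherin holds cells together in the adherens junction just below. In the intestine the claudins are not used evenly, since pore-forming ones serve the uptake of sodium-coupled nutrients and sealing ones keep luminal contents out.

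The wild-type-labelled section held 50970 barcodes with 39824941 counts, and the knockout-labelled section 88056 barcodes with 89754886 counts, at medians of 721 and 932 counts per barcode. Each genotype had 1 section, so no test between genotypes was possible, and intervals given here are at 95% and cover counting error only. A barcode takes RNA from whatever cells lie over it, so fewer cells of a type and less RNA per cell cannot be told apart. Dpf2 was not lower in the knockout-labelled section (23.6 CPM in the wild-type-labelled section and 26.0 CPM in the other), so the sections are named throughout by their labels. The barcode names are array positions, and 45557 of them occurred in both sections. The tissue over the 2 arrays differed in makeup. Summed villus enterocyte markers (23 genes, 22 of them above 0) stood at 699 CPM in the wild-type-labelled section and 40583 CPM in the knockout-labelled section, Paneth cell markers (17 genes) at 117804 and 6990 CPM, markers of regenerating epithelium (19 genes) at 7039 and 3958 CPM, and pan-epithelial markers (12 genes) at 6625 and 10473 CPM. The part of this makeup in the ratios between the sections was not tested.

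Cldn4 and Cldn3 are neighbours on chromosome 5, with 39.3 kb between their gene bodies, and Cldn15 lies further along the same chromosome. Their promoter sequences are shown because these 3 genes of 1 chromosome gave unlike results, with Cldn4 lower, Cldn3 higher and Cldn15 much higher in the knockout-labelled section when section totals were the scale. Each line gives the 250 bases before the RefSeq start of the gene (build GRCm38.p6), 5′ to 3′ on the strand of the gene, with matches to the AP-1 letters TGANTCA and to the GC box letters GGGCGG, on either strand, in capitals.
Cldn4, chr5:134946935-134947184, minus strand: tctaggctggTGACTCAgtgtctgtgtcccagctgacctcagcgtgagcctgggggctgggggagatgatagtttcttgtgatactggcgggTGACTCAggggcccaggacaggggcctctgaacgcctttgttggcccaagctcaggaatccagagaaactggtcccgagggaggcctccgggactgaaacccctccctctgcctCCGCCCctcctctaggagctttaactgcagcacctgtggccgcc
Cldn3, chr5:134985964-134986213, plus strand: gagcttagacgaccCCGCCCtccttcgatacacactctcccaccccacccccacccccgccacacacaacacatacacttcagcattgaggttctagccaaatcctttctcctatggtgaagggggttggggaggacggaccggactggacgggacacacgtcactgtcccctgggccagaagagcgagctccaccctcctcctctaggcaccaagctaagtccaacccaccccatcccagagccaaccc
Cldn15, chr5:136967619-136967868, plus strand: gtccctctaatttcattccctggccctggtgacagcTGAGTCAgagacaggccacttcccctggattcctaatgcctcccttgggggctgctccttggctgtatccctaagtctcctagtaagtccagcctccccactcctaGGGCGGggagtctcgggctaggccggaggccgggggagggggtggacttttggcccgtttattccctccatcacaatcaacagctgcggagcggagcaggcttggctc

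The Cldn4 window held 2 AP-1 matches, 240 to 234 and 158 to 152 bases before the start, and such a pair occurred in 0.338% of the 32851 promoter windows of this length. The Cldn15 window held 1 AP-1 match, 214 to 208 bases before the start, and the Cldn3 window held 0. At least 1 AP-1 match occurred in 6.75% of all windows. Each of the 3 windows held 1 GC box match, as at least 1 occurred in 32.7% of all windows. Of the 5 sets of letters searched, the TEAD letters GGAATG (12.6% of windows) were found in the Cldn15 window but not in those of Cldn4 and Cldn3, and neither the CDX letters TTTATNG (9.81%) nor the HNF4 letters CAAAGTNCA (1.19%) were found in any of the 3. Of the other members with a window, F11r held 1 AP-1 match and 1 GC box match, Tjp1 and Ocln held 2 GC box matches each, Cldn7 held 1 TEAD and 1 GC box match, and Cldn2 held 1 TEAD match. A match is a run of letters and not evidence of binding. A window was found for 8 of the 10 members and not for Cldn23 and Cdh1.

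The first question was how each junction gene differed between the sections. Of the 9 measured members, 4 (Cldn3, Cldn15, Cldn23 and Ocln) were at least 2-fold higher in the knockout-labelled section, beside 15.7% of the 14516 genes with 200 or more counts. 1 member, Cldn4, was at least 2-fold lower, beside 19.7% of those genes, and Cldn7, Tjp1, F11r and Cdh1 lay within 2-fold. The median log2 ratio (knockout-labelled section over wild-type-labelled section, each scaled to counts per 1000000, CPM) was 0.85 over the 9 members and −0.18 over all genes with 200 or more counts. Next, 4 other scalings were used: the median of gene ratios, totals without Paneth genes or without the 10 most abundant genes, and pan-epithelial counts. The last took 10 of the 12 pan-epithelial markers, without Krt20 and Cdh17. The sum of all 12, with a log2 ratio of 0.66 between the sections, was not used as a scale. In these 4 scalings Cldn4 stayed below 0 and the other measured members above it, except Tjp1, which fell below 0 in 2 of them. With Epcam counts as the scale, a choice made after the data were seen, the median became −0.89 and 7 of the 8 members above 0 fell below it, while Cldn15 stayed above 0 at 1.46 and Cldn4 below 0 at −3.75. Epcam, the epithelial adhesion molecule that binds claudins, itself had 522 CPM and 1749 CPM in the wild-type-labelled and knockout-labelled sections. Its log2 ratio was 1.74, and this scale lowers the ratio of every gene by that amount, the median over all genes included.

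**Figure D1:**
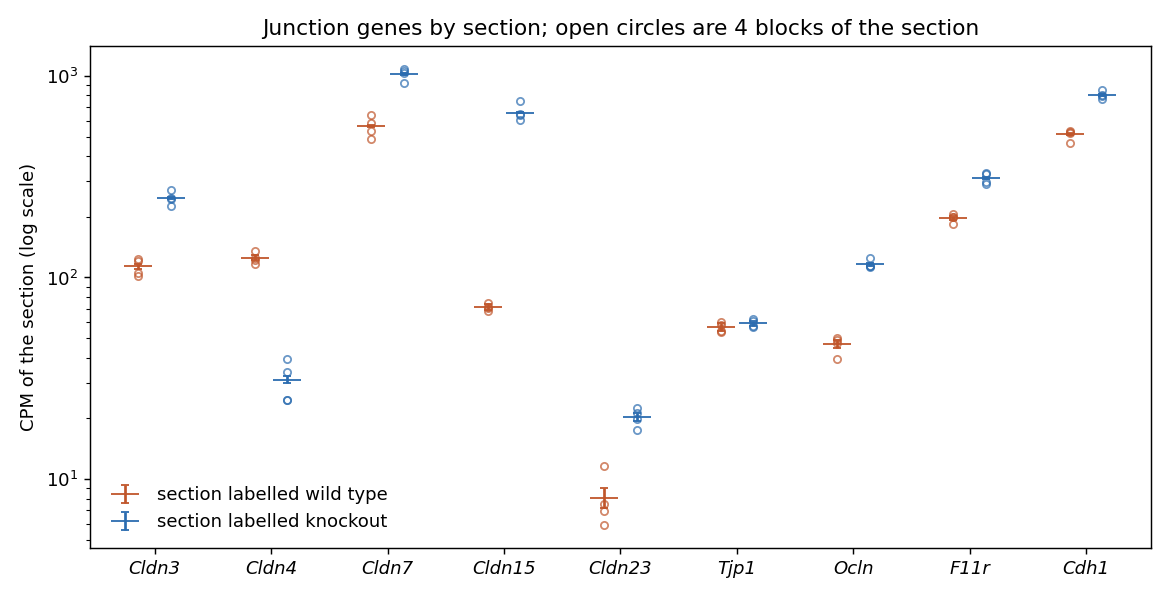
CPM of each junction gene (log axis) in the wild-type-labelled section (orange) and the knockout-labelled section (blue). Wide dashes are the whole section with 95% counting intervals, and open circles are its 4 blocks by position, which are not replicates. The blocks of the 2 sections overlap for Tjp1 alone, and the share of all genes without overlap was not computed. With the section total as the scale Cldn4 is the 1 gene whose level lies lower in the knockout-labelled section.

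Cldn15 forms channels for sodium and other small cations and is the main pore-forming claudin of the adult small intestine. The gene (ENSMUSG00000001739, chromosome 5, 136967869 to 136975845) had 2837 counts, or 71.2 CPM (68.6 to 73.9), in the wild-type-labelled section. It had 59026 counts, or 658 CPM (652 to 663), in the knockout-labelled section. The log2 ratio was 3.21 (3.15 to 3.26), a 9.23-fold difference and the largest among the members. Each section was also divided by position into 4 blocks with about equal numbers of barcodes. The share of all genes whose blocks do not overlap between the sections was not computed. Many of the other junction genes, of either direction, also had blocks without overlap, so its absence does not set a member apart. Blocks of the wild-type-labelled section ran from 68.0 to 74.4 CPM and those of the knockout-labelled section from 607 to 748 CPM, so the whole of each section lay on its own side. Even the tile with the lowest Cldn15 level in the knockout-labelled section (382 CPM, in tiles of 100 by 100 position units) exceeded the highest tile of the other (112 CPM).

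Cldn4, a sealing claudin that is also a receptor for an enterotoxin of Clostridium perfringens, ran the other way. The gene (ENSMUSG00000047501, chromosome 5, 134945123 to 134946934) had 4989 counts, or 125 CPM (122 to 129), in the wild-type-labelled section. It had 2799 counts, or 31.2 CPM (30.0 to 32.4), in the knockout-labelled section, although that section holds more counts in all. The log2 ratio was −2.01 (−2.07 to −1.94), which puts the level 4.02-fold higher in the wild-type-labelled section. Blocks spanned 117 to 136 CPM in the wild-type-labelled section and 24.6 to 39.4 CPM in the other, without overlap. Tiles of 100 units did overlap: they ran from 23.5 to 307 CPM, with a median of 120.3 CPM, in the wild-type-labelled section and from 2.89 to 128 CPM, with a median of 26.2 CPM, in the knockout-labelled section. Cldn4 was thus spread widely over the first section and raised in few places of the second, where a band of bright squares near 1 edge stood out from a low field.

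**Figure D2:**
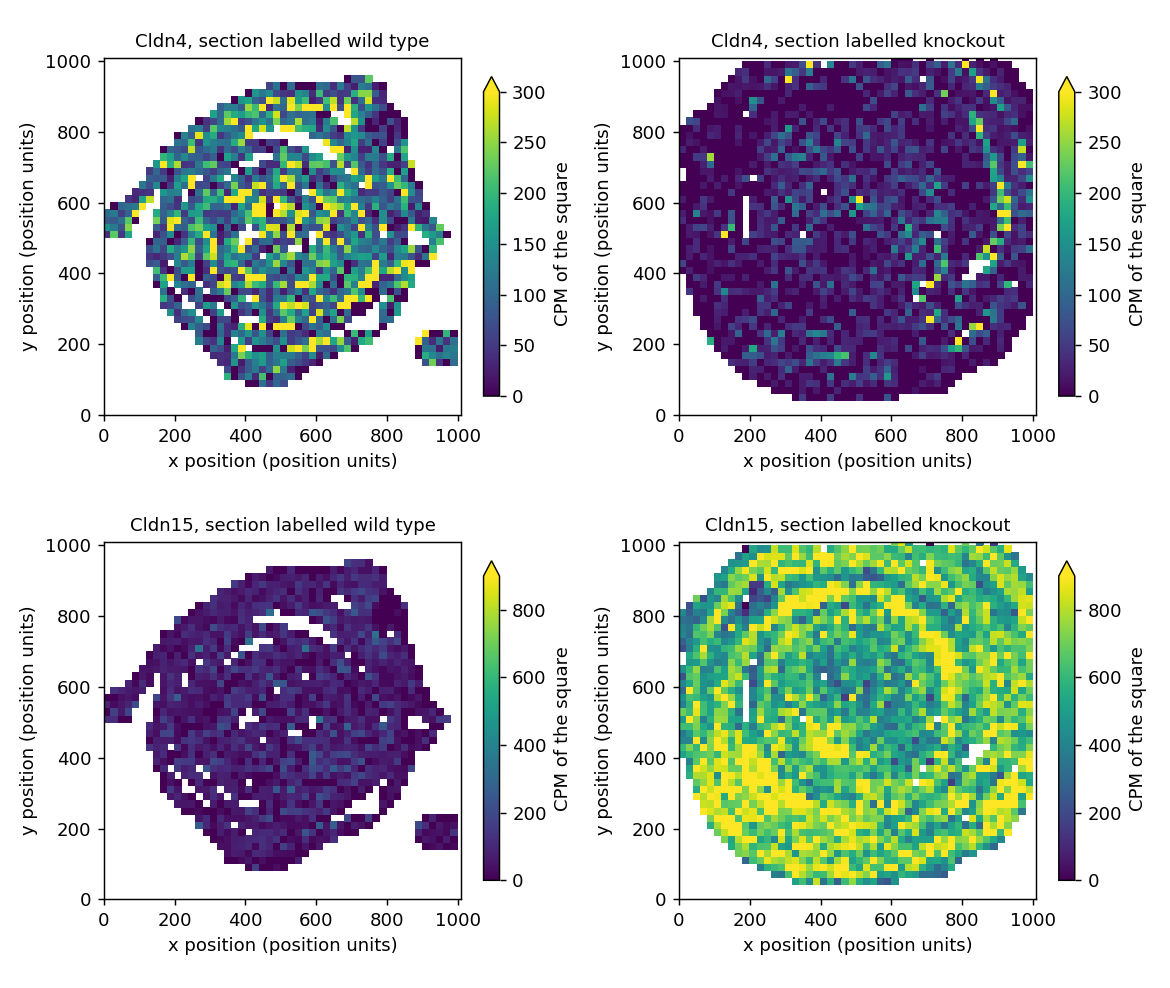
Maps of Cldn4 (top) and Cldn15 (bottom) in the wild-type-labelled section (left) and the knockout-labelled section (right), over squares of 20 by 20 position units with 5000 or more counts. Colour is the CPM of the square, capped at 300 for Cldn4 and 900 for Cldn15, and position is in the deposited units, whose size is not stated. Cldn4 is scattered over the left map and gathers in a band at high x on the right one, while Cldn15 is high over nearly the whole right map.

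Cldn3, the sealing claudin that neighbours Cldn4 in the genome, was higher in the knockout-labelled section. The gene (ENSMUSG00000070473, chromosome 5, 134986214 to 134987476) had 4527 counts, or 114 CPM (110.4 to 117.0), in the wild-type-labelled section and 22160 counts, or 247 CPM (244 to 250.2), in the other. The log2 ratio was 1.12 (1.07 to 1.17). Blocks of 102 to 124 CPM and of 226 to 271 CPM did not overlap. Across the 39.3 kb that separate them, the neighbours Cldn3 and Cldn4 therefore stood on opposite sides of 0 with the section total as the scale, but both stood below 0 (−0.62 and −3.75) with Epcam as the scale.

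Cldn7, which also sits along the lateral membrane and is required for an intact gut epithelium, had the log2 ratio closest to 0 among the 5 measured claudins of the set. The gene (ENSMUSG00000018569, chromosome 11, 69964779 to 69967886) had 22524 counts, or 566 CPM (558 to 573), in the wild-type-labelled section. It had 91606 counts, or 1021 CPM (1014 to 1027), in the knockout-labelled section. The log2 ratio was 0.85 (0.83 to 0.87), within 2-fold, with blocks of 487 to 641 CPM and 916 to 1085 CPM. Relative to 1000 counts of Epcam, Cldn7 had 1083 counts in the wild-type-labelled section and 584 in the other, so its direction turned with the scale.

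Cldn23, a claudin of differentiated cells near the gut surface, had the fewest counts of the measured members. The gene (ENSMUSG00000055976, chromosome 8, 35824709 to 35826559) had 322 counts, or 8.09 CPM (7.23 to 9.02), in the wild-type-labelled section and 1821 counts, or 20.3 CPM (19.4 to 21.2), in the other. The log2 ratio was 1.33 (1.16 to 1.503). Blocks ran from 5.93 to 11.6 CPM and from 17.5 to 22.4 CPM, without overlap, and the highest block of the wild-type-labelled section stood well above its other 3. With Epcam as the scale the ratio was −0.42.

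Cldn2, which forms channels for cations and water and is known from crypts, was listed at 0 counts in both sections. Nothing can be read from this about its expression, because the gene lies on chromosome X, and all 2041 genes placed on X were listed at 0 in both sections.

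Of the 3 other tight junction genes of the set, only Ocln passed 2-fold with the section total as the scale. Ocln (occludin, ENSMUSG00000021638, chromosome 13, 100496504 to 100552718), a membrane protein of the tight junction strands, had 1869 counts, or 46.9 CPM (44.8 to 49.1), in the wild-type-labelled section. It had 10436 counts, or 116 CPM (114 to 119), in the knockout-labelled section, a log2 ratio of 1.31 (1.24 to 1.38). F11r (JAM-A, ENSMUSG00000038235, chromosome 1, 171437561 to 171464593), an adhesion molecule of the immunoglobulin family, had 7889 and 28088 counts, or 198 CPM (194 to 203) and 313 CPM (309 to 317), a log2 ratio of 0.66 (0.62 to 0.70). Blocks did not overlap for either gene: 39.6 to 50.1 against 113 to 125 CPM for Ocln, and 184 to 206 against 292 to 331 CPM for F11r.

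Tjp1 (ZO-1, ENSMUSG00000030516, chromosome 7, 65296165 to 65527850), the scaffold that links claudins to actin, differed between the sections by less than the counting error. It had 2261 counts, or 56.8 CPM (54.5 to 59.2), in the wild-type-labelled section and 5309 counts, or 59.2 CPM (57.6 to 60.8), in the other. The log2 ratio was 0.06 (−0.01 to 0.13), and the blocks overlapped, at 53.8 to 59.95 CPM and 56.8 to 62.3 CPM. Scaled by the counts of the 10 pan-epithelial markers used for scaling the ratio was −0.20, and by Epcam −1.68.

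Cdh1 (E-cadherin, ENSMUSG00000000303, chromosome 8, 106603350 to 106670247), the adhesion receptor of the adherens junction, had 20479 counts, or 514 CPM (507 to 521), in the wild-type-labelled section. It had 72127 counts, or 804 CPM (798 to 809), in the knockout-labelled section, a log2 ratio of 0.64 (0.62 to 0.67). Blocks of 465 to 532 CPM and 771 to 852 CPM did not overlap. This ratio and that of F11r were close to the log2 ratio of 0.66 of the 12 summed pan-epithelial markers. Cldn15 and Cldn4 were far from it on either side. With the 10 pan-epithelial markers used for scaling, Cdh1 stood at 0.38 and F11r at 0.40.

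The 92 other junction genes, listed by role with earlier results of these data known, lay on both sides of 0. Of the 74 that reached 200 counts, 18 stood 2-fold or more above the wild-type-labelled section in the other, 12 stood 2-fold or more below it and 44 lay within 2-fold. These are 24.3% and 16.2% of the genes, beside 15.7% and 19.7% of all genes with 200 or more counts. The median log2 ratio of the 74 junction genes was 0.33. The highest 5 ratios included both protocadherins of the intermicrovillar links: Cdhr2 stood at 4.05 (3.97 to 4.13) and Cdhr5 at 3.80 (3.75 to 3.86). They were followed by Cxadr, the coxsackievirus and adenovirus receptor of the tight junction, at 1.75, Epcam at 1.74 and the liver-intestine cadherin Cdh17 at 1.73. The lowest 5 were Ildr1 at −3.38 (−3.65 to −3.11, 641 and 139 counts) and Ildr2 at −1.93, both proteins of the tricellular corner, the nectin Nectin4 at −2.26, the desmosomal plakophilin Pkp1 at −1.79 and Ybx3, a DNA-binding partner of ZO-1, at −1.72.

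By role, the claudin-regulating membrane proteins had 4 of 5 genes at least 2-fold higher and 0 lower, and their most abundant gene Spint2, a protease inhibitor, stood at 1.18. The adherens junction list had 4 of 15 genes higher and 3 lower. Counted in it, and among the higher, were the cadherin Cdh17 and the protocadherins Cdhr2 and Cdhr5 of the intermicrovillar links. Cdh17 was its most abundant gene (660 CPM in the wild-type-labelled section and 2185 CPM in the other). The tight junction plaque and polarity genes had 4 of 18 higher and 3 lower, and their most abundant gene, Ybx3, was among the lower. Other tight junction membrane proteins had 2 of 10 higher and 3 lower, with Lsr, a tricellular junction receptor, at 0.24. Desmosome genes had 2 of 9 higher and 2 lower, with the plaque protein Dsp at 0.37. None of the 3 measured gap junction genes was higher and 1, the connexin 43 gene Gja1, was lower at −1.60. The 6 hemidesmosome and basal adhesion genes all lay within 2-fold, with the laminin receptor subunit Itga6 at 0.48. Contractile regulators had 2 of 5 higher and 0 lower, and their most abundant gene Mylk, the myosin light chain kinase, stood at 1.12 and is also a smooth muscle marker. The summed smooth muscle markers stood at 994 and 2405 CPM in the 2 sections, and their part in the Mylk ratio was not tested. Of the 20 other claudins, 17 had fewer than 200 counts, and the 3 measured lay within 2-fold, with the claudin-domain gene Cldnd1 at 0.20. Among those without counts, Cldn34a and Cldn34d lie on chromosome X, as does the gap junction gene Gjb1. Like Cldn2, these genes cannot be read, because all genes placed on X were listed at 0. Scaled by Epcam, 2 of the 74 genes were at least 2-fold higher in the knockout-labelled section and 53 lower. This scale lowers the log2 ratio of every gene by 1.74, the ratio of Epcam itself. The share of all genes past 2-fold at this scale was not computed, so these counts say nothing particular to junction genes.

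**Figure D3:**
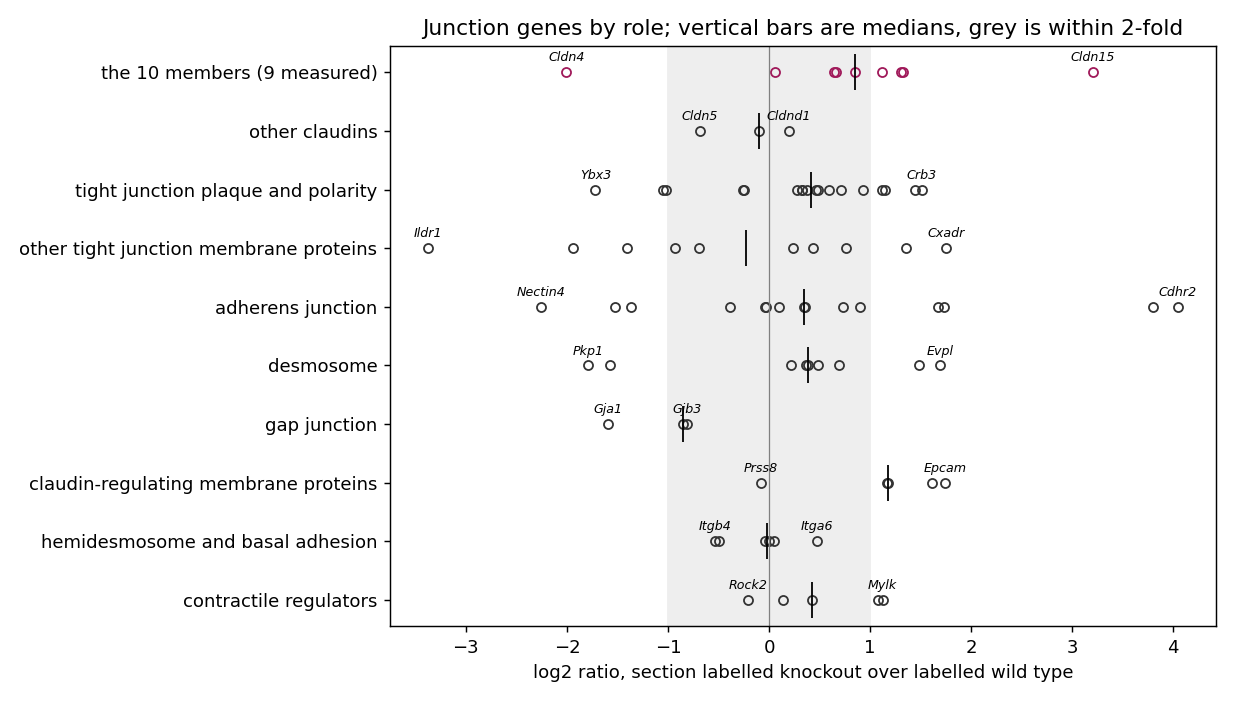
Log2 ratio of the knockout-labelled section over the wild-type-labelled section, scaled by section totals, for the 9 measured members (magenta) and the 74 other junction genes with 200 or more counts, in rows by role. Each circle is a gene, vertical bars are medians and the grey band is within 2-fold. Genes of most roles lie on both sides of 0, and Cdhr2 and Ildr1 mark the ends at 4.05 and −3.38.

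The next question was how the junction genes lay along the path from crypt to villus. Squares of 10 by 10 position units with 1000 or more counts were used. Their share of the 10 pan-epithelial markers used for scaling had to be at or above the section's median. The squares kept were ordered by their villus share, which is villus marker counts over villus and crypt marker counts. They were then put into 5 bins of about equal size, from the crypt end (bin 1) to the villus end (bin 5). This left 2459 squares in the wild-type-labelled section and 4143 in the knockout-labelled section. The order is within a section and the bins are not matched between sections: the median villus share was 0.060 in bin 1 and 0.328 in bin 5 of the wild-type-labelled section, and 0.889 and 0.990 in the other. The lowest share in the knockout-labelled section was 0.679.

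In the wild-type-labelled section, 1 of the 9 measured members, Cldn23, was at least 2-fold higher at the villus end than at the crypt end, beside 1.47% of 10815 genes with 50 or more counts in these bins, and 0 members were at least 2-fold lower, beside 0.305%. In the knockout-labelled section, 2 members, Cldn4 and Cldn23, were at least 2-fold higher, beside 5.23% of 12287 genes, and 0 were at least 2-fold lower, beside 31.1%. The counts over members stand on 9 genes.

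**Figure D4:**
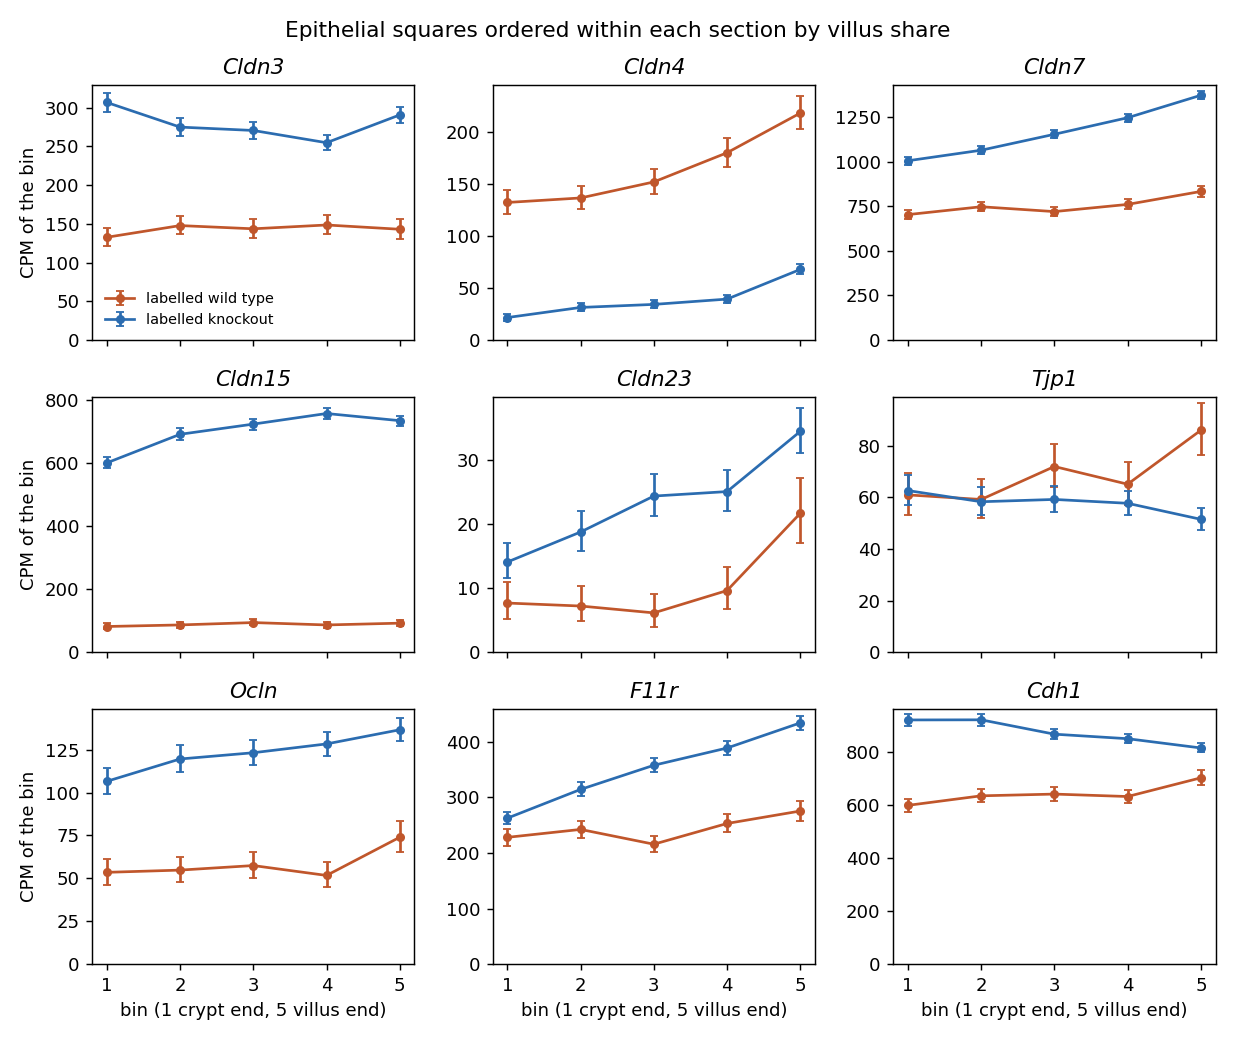
CPM of each measured member in 5 bins of epithelial squares ordered within a section by villus share, from the crypt end (1) to the villus end (5). Orange is the wild-type-labelled section, blue the knockout-labelled section, and bars are 95% counting intervals. Cldn4 climbs in every step in both sections, Cldn23 turns up most at the villus end, and Tjp1 and Cdh1 slope in opposite directions in the 2 sections.

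Cldn4 stepped up in all 4 steps from crypt end to villus end in both sections. Its levels in the 5 bins were 132, 137, 152, 180.2 and 218 CPM in the wild-type-labelled section, a log2 ratio of bin 5 over bin 1 of 0.72 (0.56 to 0.89). They were 21.7, 31.4, 34.3, 39.4 and 68.0 CPM in the knockout-labelled section, a log2 ratio of 1.65 (1.41 to 1.90). Every bin of the wild-type-labelled section lay above every bin of the other. The summed markers of regenerating epithelium went from 8001 CPM in bin 1 to 9431 CPM in bin 5 of the wild-type-labelled section, with a fall from 8308 to 8163 CPM between bins 2 and 3. In the knockout-labelled section they went from 2929 to 5985 CPM. Villus tip markers also rose between bins 1 and 5, from 651 to 2132 CPM and from 4584 to 23722 CPM. Paneth markers fell, from 85750 to 67666 CPM and from 7207 to 2814 CPM. The part of these lists in the Cldn4 gradient was not tested.

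Cldn23 had the steepest gradient in the wild-type-labelled section and the second steepest in the other. Levels in the wild-type-labelled section were 7.65, 7.18, 6.12, 9.60 and 21.6 CPM, flat over 3 bins and then higher, with a log2 ratio of 1.501 (0.86 to 2.17) on 29 and 74 counts. In the knockout-labelled section they were 14.0, 18.7, 24.3, 25.0 and 34.4 CPM, with a log2 ratio of 1.29 (0.98 to 1.62). The 21.6 CPM at the villus end of the wild-type-labelled section lay between the levels of bins 2 and 3 of the other. Those bins have higher median villus shares, so this is no match in position. Villus tip markers went from 651 to 2132 CPM and from 4584 to 23722 CPM between crypt end and villus end. Of these markers, 3 of 9 are also in the villus list that set the order.

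The remaining members were flatter. The pan-epithelial markers used for scaling also rose from crypt end to villus end of the wild-type-labelled section, from 7370 to 8191 CPM. Scaled by them within each bin, log2 slopes there were 0.09 for Cldn7, 0.12 for F11r, 0.31 for Ocln, 0.02 for Cldn15 and −0.04 for Cldn3. In the knockout-labelled section the same scale gave 0.42, 0.70, 0.33, 0.26 and −0.10. The values that follow are not scaled in this way. Cldn7 went from 703 to 833 CPM (log2 0.24, 0.17 to 0.32) in the wild-type-labelled section and from 1005 to 1372 CPM (log2 0.45, 0.41 to 0.49) in the other, stepping up in each of its 4 steps there. F11r had log2 ratios of 0.27 (0.14 to 0.41) and 0.72 (0.65 to 0.80). It started from 228 and 263 CPM in bin 1, whose villus share was unlike in the sections. Ocln had log2 ratios of 0.47 (0.20 to 0.74) and 0.36 (0.23 to 0.48). Cldn15, in contrast to its difference between sections, moved little along the axis: 81.2 to 91.8 CPM (log2 0.18, −0.05 to 0.41) and 600 to 733 CPM (log2 0.29, 0.24 to 0.34). Its lowest bin in the knockout-labelled section was above its highest bin in the wild-type-labelled section, 93.7 CPM. Cldn3 had no clear slope, with log2 ratios of 0.11 (−0.07 to 0.29) and −0.08 (−0.15 to 0.00), and that of the knockout-labelled section was 0.13 when all squares with 1000 or more counts were used.

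Tjp1 and Cdh1 sloped in opposite directions. Tjp1 went from 60.9 to 86.0 CPM in the wild-type-labelled section (log2 0.50, 0.24 to 0.75) and from 62.6 to 51.5 CPM in the other (log2 −0.28, −0.46 to −0.10). Bins of the same number hold unlike villus shares in each section, so these levels do not compare the sections. Cdh1 went from 599 to 703 CPM in the wild-type-labelled section (log2 0.23, 0.15 to 0.31). It went from 921 to 815 CPM in the knockout-labelled section (log2 −0.18, −0.22 to −0.13). However, its ratio in the knockout-labelled section was 0.09 over all squares with 1000 or more counts. Scaled by the bin's pan-epithelial counts, the slopes were 0.08 and −0.20 for Cdh1 and 0.34 and −0.31 for Tjp1, in the same order of sections. Smooth muscle markers went from 1706 to 673 CPM between bins 1 and 5 of the knockout-labelled section, against 561 and 528 CPM in the wild-type-labelled section. In the 5% of squares of the knockout-labelled section richest in them, Tjp1 was at 1.21 times and Cdh1 at 0.709 times its level in all squares. The part of smooth muscle in either slope was not tested.

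Since the bins of the sections hardly share a range of villus share, squares of the same share were also compared, a choice made after the data were seen. Between shares of 0.8 and 0.9 there were 50 squares of the wild-type-labelled section and 1354 of the knockout-labelled section. Cldn15 had 108 CPM (77.2 to 146, 41 counts) and 515 CPM (503 to 527), a log2 ratio of 2.26 (1.82 to 2.74). Cldn4 had 194 CPM (152 to 244, 74 counts) and 16.3 CPM (14.3 to 18.5), a log2 ratio of −3.58 (−3.96 to −3.18). Both differences had the same direction in these squares, epithelial or not, as over whole sections, and that of Cldn4 was larger.

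Most other members did not keep their direction there. Cldn7 stood at −0.51 (−0.65 to −0.36), F11r at −0.73 (−0.98 to −0.47), Tjp1 at −0.61 (−1.08 to −0.11), Cdh1 at −0.19 (−0.35 to −0.02) and Cldn23 at −1.21 (−2.02 to −0.28, 13 counts in the wild-type-labelled section). Ocln was at −0.05 (−0.50 to 0.44), within counting error of 0, and Cldn3 stayed above 0 at 0.98 (0.57 to 1.43). Between shares of 0.6 and 0.8 (62 and 182 squares), Cldn15 was at 2.34 (1.92 to 2.79), Cldn4 at −3.97 (−4.74 to −3.26, 78 and 21 counts) and Cldn3 at 0.72 (0.38 to 1.07). In the same window Cldn7 stood at 0.07 (−0.08 to 0.23), Ocln at 0.57 (0.04 to 1.14), Cdh1 at 0.24 (0.07 to 0.42), Tjp1 at −0.42 (−0.96 to 0.16), F11r at −0.33 (−0.63 to −0.02) and Cldn23 at −1.08 (−2.13 to 0.06, 12 and 24 counts). Squares of equal share were still unlike in makeup: at 0.8 to 0.9, Paneth markers stood at 54245 CPM in the wild-type-labelled section and 12583 CPM in the other, and regenerating epithelium markers at 8025 and 2388 CPM. Their part in these ratios was not tested.

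To see which tissue the members lay with inside a section, the 5% of squares richest in each marker list were summed and set against all squares of that section. Cldn4 was high in squares rich in regenerating epithelium and villus tip markers. In squares rich in regenerating epithelium markers its CPM was 3.19 times that of the wild-type-labelled section and 4.75 times that of the knockout-labelled section, and in squares rich in villus tip markers it was 2.06 and 5.02 times. Squares rich in pan-epithelial markers had it at 2.20 and 4.08 times. In crypt-rich squares it was 0.868 and 0.459 times. Cldn23 was highest in villus tip squares, at 3.57 and 3.11 times (49 and 299 counts).

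Cldn15 had a narrow range, from 0.651 times in smooth muscle squares to 1.05 times in T and NK cell squares of the knockout-labelled section, and stood at 1.01 times in the pan-epithelial squares there. In the wild-type-labelled section it was 1.37 times in crypt-rich squares, 1.36 times in villus-rich squares and 0.947 times in squares rich in regenerating epithelium markers. Smooth muscle squares were low in nearly all members: from 0.370 times (Cldn7) to 0.720 times (Tjp1) in the wild-type-labelled section, and from 0.411 times (Cldn4) to 0.735 times (Ocln) in the other, where Tjp1 was the exception at 1.21 times. Tjp1, which non-epithelial cells also use, was between 0.866 and 1.21 times in squares of every list in the knockout-labelled section. In the wild-type-labelled section it was 1.92 times in squares rich in regenerating epithelium markers and 0.5004 times in Paneth-rich squares.

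**Figure D5:**
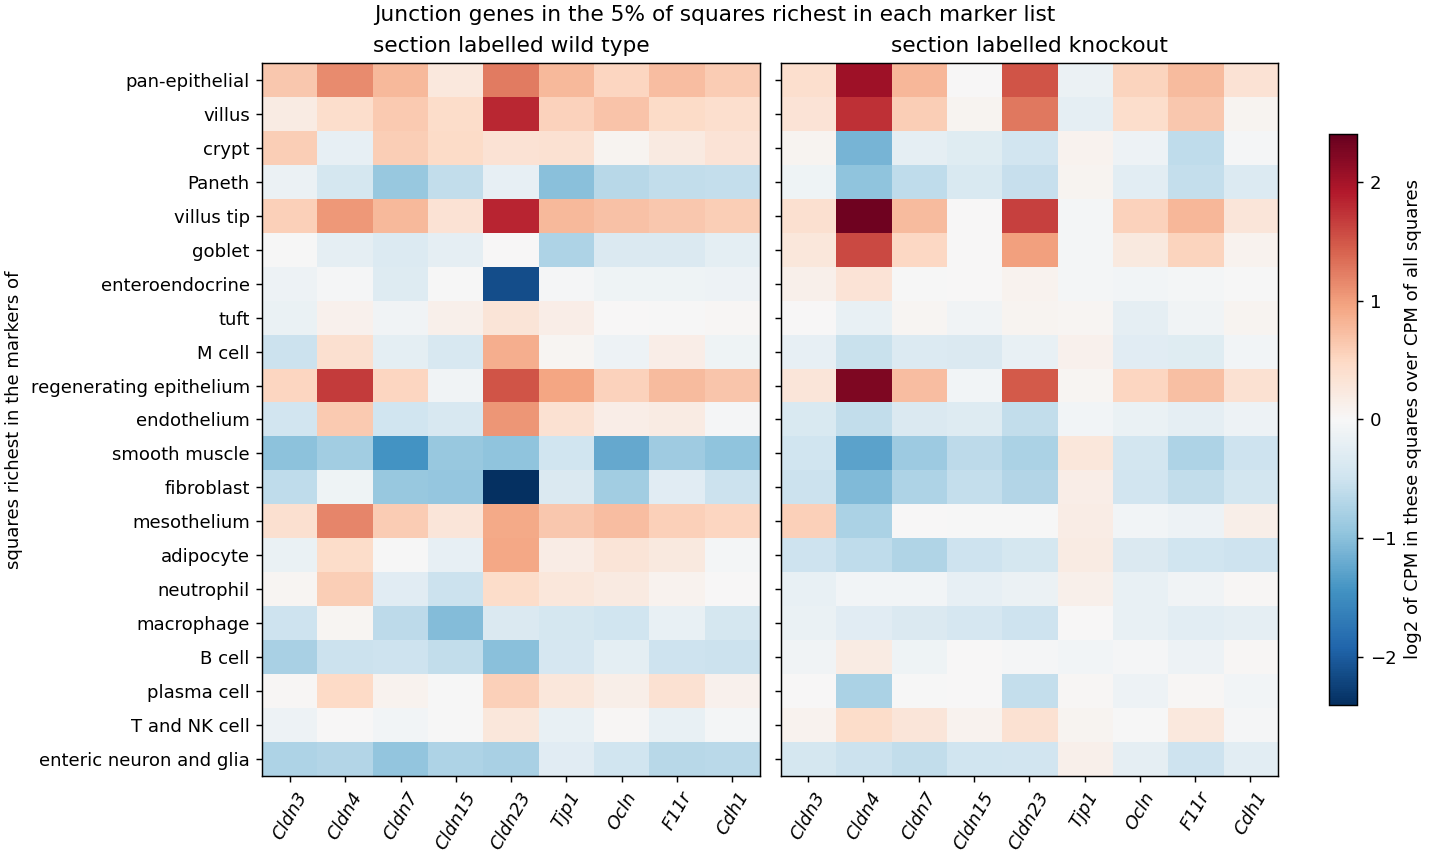
Log2 of the CPM of each measured member in the 5% of squares richest in a marker list (rows) over its CPM in all squares, for the wild-type-labelled section (left) and the knockout-labelled section (right). Red is above and blue below the whole section. Cldn4 and Cldn23 have the strongest colours, Cldn15 and Tjp1 are pale in the knockout-labelled section, and the 2 darkest blue Cldn23 cells of the left panel rest on 3 and 2 counts.

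The genes whose pattern was most like each member's were sought over tiles of 50 by 50 position units, 237 in the wild-type-labelled section and 356 in the other, among 7504 genes, by the mean of the Pearson correlations in the 2 sections. Tiles share a library, a total count and the amount of epithelium in them, so these are descriptions. Cldn4 was most like Sprr2a1 (r of 0.72 in the wild-type-labelled section and 0.70 in the other) and Sprr2a2 (0.67 and 0.69), small proline-rich proteins of the epithelial surface. These 2 are near-identical copies between which counts may have been split, and Sprr2a1 is also in the list for regenerating epithelium. Cldn7 was most like Cdh17 (0.86 and 0.84) and Epcam (0.82 and 0.88), as was Ocln (0.63 and 0.44 with Cdh17, 0.57 and 0.46 with Epcam).

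Cldn15 was most like the galectin gene Lgals4 (0.67 and 0.69) and Ckmt1 (0.59 and 0.74), a mitochondrial creatine kinase. Cldn3 was most like the keratin gene Krt8 (0.59 and 0.61) and the thioredoxin gene Txn1 (0.55 and 0.61). F11r was most like Serpinb6a (0.73 and 0.81) and Cdh17 (0.71 and 0.82), and Cdh1 most like the annexin gene Anxa2 (0.86 and 0.74) and Spint2 (0.76 and 0.80). Cldn23, with few counts, had weaker likeness, to Serpinb1a (0.37 and 0.51) and the differentiation keratin Krt20 (0.40 and 0.47). Tjp1 had the weakest, to Pdlim1 (0.56 and 0.28) and 9330111N05Rik (0.51 and 0.27).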

How the data were processed

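Each sample was 1 tissue section on a spatial array. The authors deposited whole-number counts for every gene at every barcode, and these were used unchanged. The submitters' processing notes name the build GRCm38. Not given in the sources used here are the software that aligned and counted the reads and whether molecular identifiers were collapsed, so values are called counts. The positions deposited by the authors are used as other numbers with no stated unit. The labels' protocols say that spots under tissue were kept. Counts of 94 repeated symbols were added to the first.

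Counts were summed per section, bin or group of squares and scaled per 1000000 (CPM), with exact Poisson intervals for CPM and exact conditional binomial (Clopper-Pearson) intervals for ratios, at 95%. Called means at least 2-fold with 200 or more counts over both sections, or 50 or more in the 2 end bins. The order of squares used 0.5 added to villus and crypt counts. Likeness used log2(CPM + 10) over tiles with 20000 or more counts, among genes with 2000 or more counts in all and 300 or more in each section. Named besides the members were Dpf2, the 5 highest and 5 lowest ratios of the junction lists, the most abundant gene of each role, and the 2 genes most like each member. Of the genes the rule covers, 2 are not reported here and were left out of the junction lists. The members and lists were chosen with earlier results of these data known. Promoters and positions come from RefSeq (GRCm38.p6), in which 37720 symbols (69.0%) and all 10 members occurred once. Steps were run in Python 3.11.15 with numpy 2.4.6, scipy 1.17.1, pandas 2.3.3 and matplotlib 3.10.9 and tested on simulated data. Alternatives covered scaling, barcodes, squares, tiles, blocks, minimum counts, grid, bins and the crypt list.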

Additional observations from a re-analysis of the deposited data

Results flagged for a closer look

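The slopes of Tjp1 and Cdh1 from crypt end to villus end had opposite signs in the 2 sections, and in each section the counting interval lay on 1 side of 0. For Tjp1 the log2 ratio of villus end over crypt end was 0.50 in the wild-type-labelled section and −0.28 in the knockout-labelled section, a difference of −0.78. For Cdh1 it was 0.23 and −0.18, a difference of −0.41. Scaled by the bin's pan-epithelial counts, Cdh1 stood at 0.08 and −0.20 and Tjp1 at 0.34 and −0.31. With 1 section per group the difference was not tested, and the ends of the order stand for unlike villus shares in the 2 sections.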

How the results depend on the processing

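Cldn15 stayed above 0 (1.46 to 3.46) and Cldn4 below 0 (−3.97 to −1.57) in all 13 alternatives for the log2 ratio between sections; Tjp1 changed sign in 7. The members' median of 0.85 became 1.03 with scaling by the median of gene ratios, 0.62 without Paneth genes in the total, 0.80 without the 10 most abundant genes, 0.59 with pan-epithelial scaling, 0.51 over squares at or above the median pan-epithelial share, 0.90 as a mean over tiles, and 0.59 and 1.16 in the lowest and highest of 16 pairs of blocks. Tjp1 was −0.17 without Paneth genes, −0.20 with pan-epithelial scaling, −0.34 over pan-epithelial squares and −0.079 as its lowest over the pairs of blocks. Over those pairs the lowest count was 2 members at least 2-fold higher and 6 other junction genes 2-fold lower. The share of all genes past 2-fold over those pairs was not computed, so these counts have no background beside them.

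3 alternatives were chosen after seeing the data. Scaled by Epcam, 1 member passed 2-fold upwards and 4 downwards, the median was −0.89, and 2 other junction genes were higher and 53 lower; Cldn3 was −0.62, Cldn7 −0.89, Cldn23 −0.42, Tjp1 −1.68, Ocln −0.43, F11r −1.08 and Cdh1 −1.10. At villus shares of 0.6 to 0.8, 1 member was higher and 2 lower, with a median of 0.070, Cldn23 at −1.08, Tjp1 at −0.42 and F11r at −0.33. At 0.8 to 0.9, 1 member was higher and 2 lower, the median was −0.51 and 9 other junction genes were higher, with Cldn7 at −0.51, Cldn23 −1.21, Tjp1 −0.61, Ocln −0.047, F11r −0.73 and Cdh1 −0.19. The shares of all genes past 2-fold in these 3 alternatives were not computed, so the counts have no background beside them. The cause of these changes was not tested.

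Counts of members past 2-fold along the axis did not change in 7 alternatives each. Scaling by the bin's pan-epithelial counts lowered the slope of every measured member in the wild-type-labelled section, that of Cldn4 to 0.57 and of Cldn23 to 1.35. In the knockout-labelled section the Cldn3 slope became 0.15 with the Paneth list in place of the crypt list and 0.13 over all squares with 1000 or more counts, and the Cdh1 slope 0.093 over all such squares. No paired analysis was possible because each group has 1 section. Leaving out a replicate was not possible for the same reason. Depth limits Cldn23 most, with 322 counts in the wild-type-labelled section.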

Other observations

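In the 5% of squares richest in goblet cell markers, the Cldn4 CPM was 0.866 times that of the whole wild-type-labelled section (295 counts) and 2.98 times that of the whole knockout-labelled section (454 counts), where 4 other lists gave higher values: villus (3.37 times), pan-epithelial (4.08), regenerating epithelium (4.75) and villus tip (5.02). Cldn23 stood at 1.003 and 1.98 times, and Cldn7 at 0.799 and 1.41 times in the same squares. The summed goblet markers were nearly level between the sections, at 6758 and 6887 CPM. In squares rich in mesothelium markers Cldn4 was 2.27 times the wild-type-labelled section and 0.591 times the knockout-labelled section; 1 gene of that list of 7, Krt19, is also an epithelial keratin of the pan-epithelial list, and 1, Msln, is also in the list for regenerating epithelium.

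The members also followed each other over tiles of 50 by 50 position units to different degrees. On log2(CPM + 10), Cldn4 and Cldn15 had a Pearson r of 0.48 in the wild-type-labelled section and 0.00 in the other, and Cldn3 and Cdh1 had 0.49 and 0.02. Cldn7 and F11r had 0.71 and 0.81. Tjp1 lay between 0.20 and 0.53 with the other members in the wild-type-labelled section and between −0.12 and 0.09 in the knockout-labelled section. These values are descriptions over tiles of 1 section each, and the difference between the sections was not tested.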
